A study of Mus musculus with 4 samples.

Results

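The 9 genes described here encode the receptors that recognise viral-type RNA in a mouse cell and the factors that turn this recognition into an interferon response: Ddx58, Ifih1, Dhx58, Tlr3, Mavs, Irf3, Irf7, Irf9 and Stat2. They were chosen by name, with earlier results of these data known. All 30 RefSeq transcripts listed under these names, of 75959 transcripts of 21878 genes in all, were summed per gene. RNA was measured in C3H10T1/2, a mesenchymal stem cell line from C3H mouse embryos, with 2 untreated samples (replicates 1 and 2) and 2 samples given 5-AZA (replicates 101 and 102). This compound, 5-azacytidine, resembles cytidine, is built into nucleic acids and lowers DNA methylation. It was given at 20 μM for 72 hours, after which the cells were kept in fresh growth medium for 21 days. No culture time is given for the untreated cells, so exposure to 5-AZA and time in culture cannot be told apart. Levels given as before and after 5-AZA are those of the untreated and the 5-AZA samples, not of a culture followed over time. Nothing in the labels says whether the 2 samples of a group came from separate cultures, and the p-values measure the spread between these samples alone.

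RNA with features of a virus, such as long double strands or a triphosphate end, is bound in the cytosol by the helicases RIG-I (gene Ddx58) and MDA5 (Ifih1) and in endosomes by the receptor TLR3. Both helicases signal through MAVS on the mitochondrial surface, and LGP2 (Dhx58), a related helicase without the signalling domains, modulates them. The kinases downstream activate IRF3 and IRF7, which switch on interferon genes. Secreted type I interferon then acts through its receptor on a complex that holds STAT2 and IRF9 and binds a response element in the promoters of interferon-stimulated genes. Several of these factors are themselves known to be interferon-stimulated in many cell types, while Irf3 and Mavs are known for steady expression. DNA demethylating agents have been studied as inducers of this pathway.

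The values are FPKM, fragments scaled to transcript length and to the sequenced fragments, so levels of different genes can be set side by side per length, but the read depth behind a value is unknown. Sums over all mRNA transcripts were 328410 to 361664 FPKM per sample. S100a4 and Vim had the highest levels of 12 mesenchymal markers, with untreated means of 5014 and 2337 FPKM, while Thy1, another marker of such cells, was at 0.578 and 0.785 FPKM in the untreated samples and at 10.4 and 14.2 FPKM after 5-AZA. The sum of the list, most of it from S100a4 and Vim, was 9286 and 9326 FPKM before and 6203 and 6131 FPKM after 5-AZA. Of the 12 markers 7 were higher and 5 lower in both 5-AZA samples than in both untreated ones, with a median log2 change of 0.28. Over all genes tested these shares were 36.8% and 25.4%. By the rule for calls given below, 1 of the 12, Thy1, was called higher and 0 lower. In such bulk RNA, fewer cells of one type and less RNA per cell cannot be told apart.

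For each gene, log2(FPKM + 0.1) was compared between the groups with limma over the 13199 genes with a mean of at least 0.1 FPKM. A gene was called where the Benjamini-Hochberg adjusted p-value was below 0.05 and the change over 2-fold. All 9 genes were tested, and 6 of them, Ddx58, Ifih1, Dhx58, Irf7, Irf9 and Stat2, were called higher after 5-AZA, while 0 were called lower. Of these, Ifih1 passed the limit on the mean only through its 5-AZA samples. Before adjustment, too, 6 of the 9 had a p-value below 0.05 in limma. So did 3220 genes that were higher and 1464 that were lower among the 13199 tested. Over all genes tested, 13.1% were called higher and 1.32% lower. The other 3 genes, Tlr3, Mavs and Irf3, were not called. Both 5-AZA samples lay above both untreated samples in the same 6 genes, against 36.8% of all genes tested, and below them in 0, against 25.4%. The median log2 fold change was 1.77 over the 9 genes and 0.05 over all genes tested. With 2 samples in each group a two-sided exact permutation test of a single gene cannot go below p = 0.333, so the calls rest on the spread that limma estimates across all genes.

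**Figure D1:**
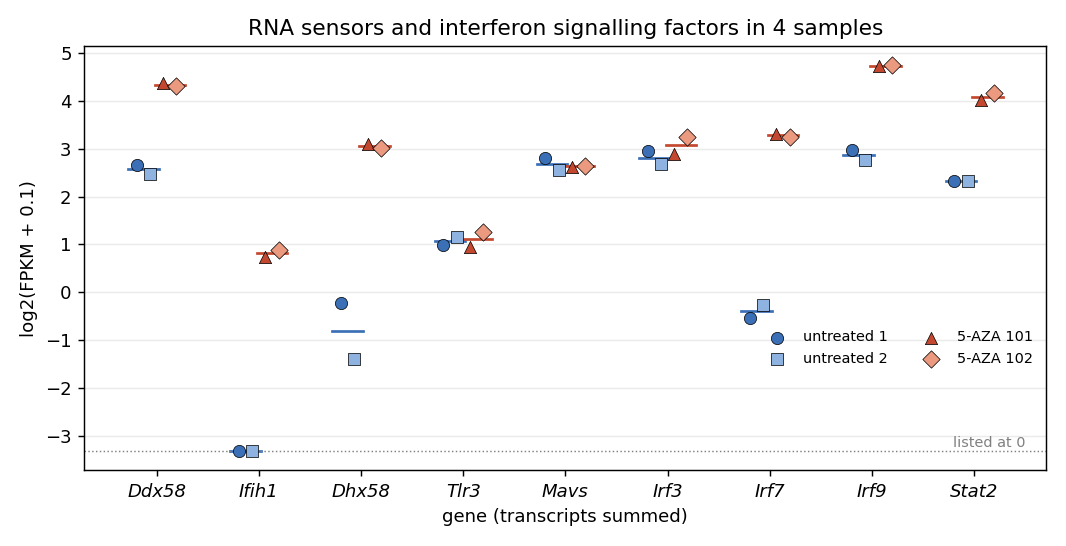
Level of each gene in each sample, as log2(FPKM + 0.1) on the vertical axis, with a bar at the group mean (n = 2). The 5-AZA samples stand above the untreated samples in Ddx58, Ifih1, Dhx58, Irf7, Irf9 and Stat2 and overlap with them in Tlr3, Mavs and Irf3, and Ifih1 is listed at 0 in both untreated samples.

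Among the cytosolic sensors, Ddx58 was at 6.24 and 5.47 FPKM in untreated replicates 1 and 2 and at 20.7 and 19.7 FPKM in 5-AZA replicates 101 and 102. The groups did not overlap, and the mean rose from 5.85 ± 0.55 to 20.2 ± 0.709 FPKM (SD, n = 2). This was a log2 change of 1.77 with SE (standard error) 0.13 (limma, adjusted p = 2.10e-05), with a 95% interval of 1.48 to 2.07. Ddx58 thus had a measurable level in the untreated samples, and it was the highest of the 3 helicases in every sample.

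Ifih1, which encodes the sensor of long double-stranded RNA, was listed at 0 in both untreated samples and at 1.58 and 1.75 FPKM after 5-AZA. An FPKM of 0 in these data can be a failed estimate as well as an absent transcript, so no fold is given. The gene was called higher (adjusted p = 3.07e-05, limma), but it passed the limit of 0.1 FPKM only through its 5-AZA samples. Its call therefore adds no support beyond the values themselves. The size of the fitted change follows the constant added before the log. With 0.1 FPKM added the fitted log2 change was 4.14, with 0.01 FPKM it was 7.39 and with 1 FPKM it was 1.41.

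Dhx58, the gene of LGP2, was at 0.757 and 0.281 FPKM in the untreated samples and at 8.47 and 8.05 FPKM after 5-AZA. Its untreated values were the most uneven of the 6 called genes with a level above 0, and still both lay far below the treated ones. The mean rose 15.9-fold, from 0.519 ± 0.337 to 8.26 ± 0.296 FPKM (SD, n = 2), with a log2 change of 3.87 with SE 0.35 (limma, adjusted p = 7.22e-05). Without 5-AZA replicate 101 or without 102 the size was 3.83 or 3.91, but the adjusted p of limma was 0.107 or 0.106 and the call was lost. Relative to Ddx58 in the same sample, Dhx58 stood at 0.121 and 0.0514 in the untreated samples and at 0.409 and 0.408 after 5-AZA. Dhx58 thereby came closer to Ddx58, with no overlap between the groups.

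The windows around the starts of Ddx58 and Ifih1, from 250 bases before to 50 bases after the annotated start, are shown because both hold the core of the interferon-stimulated response element, read here as GAAA, any 2 bases and again GAAA, on either strand. The sequences are those of RefSeq on GRCm38.p6, 5′ to 3′ on the strand of the gene, with the match in capitals. Ddx58 is at chr4:40239776-40240075 on the minus strand and Ifih1 at chr2:62646206-62646505, also on the minus strand.
Ddx58: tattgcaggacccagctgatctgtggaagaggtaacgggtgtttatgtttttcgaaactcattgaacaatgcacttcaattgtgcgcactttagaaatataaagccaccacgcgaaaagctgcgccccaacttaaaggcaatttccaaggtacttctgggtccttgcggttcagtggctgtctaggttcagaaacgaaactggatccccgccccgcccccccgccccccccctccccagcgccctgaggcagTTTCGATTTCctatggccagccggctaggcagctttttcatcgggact
Ifih1: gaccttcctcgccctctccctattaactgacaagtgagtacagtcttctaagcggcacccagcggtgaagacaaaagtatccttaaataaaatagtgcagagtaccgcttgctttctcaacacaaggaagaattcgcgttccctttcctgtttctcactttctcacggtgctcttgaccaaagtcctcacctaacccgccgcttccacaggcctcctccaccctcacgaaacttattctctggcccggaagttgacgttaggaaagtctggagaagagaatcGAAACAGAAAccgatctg
In Ddx58 the match is on the opposite strand, at bases 3 to 12 of the transcribed part, and in Ifih1 it is on the gene's own strand, at bases 33 to 42. A match describes letters in a window and does not show that a factor was bound in these cells.

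TLR3, the endosomal receptor of double-stranded RNA, takes a route to the kinases that does not use MAVS. Tlr3 was at 1.87 and 2.13 FPKM in the untreated samples and at 1.82 and 2.31 FPKM after 5-AZA. The treated values lay on either side of the untreated ones. The fitted log2 difference was 0.03 with a 95% interval of -0.47 to 0.54 (adjusted p = 0.934, limma), and over the alternatives it ran from -0.35 with quantile normalization to 0.97 with curated transcripts alone. The latter rests on the single transcript NM_126166.4, at 0.200 and 0.598 FPKM before and at 0.696 and 0.910 FPKM after 5-AZA (limma, adjusted p = 0.257). Its 7 transcripts shared this level without a stable leader, and none of them exceeded 0.91 FPKM in any sample.

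Mavs, the adaptor that both helicases need, was at 6.88 and 5.78 FPKM in the untreated samples and at 6.02 and 6.17 FPKM after 5-AZA. Here the treated samples fell between the untreated ones. The log2 difference was -0.05, with a 95% interval of -0.40 to 0.30 (adjusted p = 0.863, limma), and it was 0.076 without untreated replicate 1. A change of more than 2-fold in either direction lies outside this interval of Mavs.

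The inducing step is carried by IRF3, present in most cells, and IRF7, which amplifies the response. Irf3 was at 7.64 and 6.31 FPKM in the untreated samples and at 7.36 and 9.40 FPKM after 5-AZA. These ranges overlapped, and the log2 difference was 0.26 (95% interval -0.13 to 0.65, adjusted p = 0.329, limma). Irf7 was at 0.593 and 0.735 FPKM in the untreated samples and at 9.84 and 9.38 FPKM after 5-AZA. The groups were far apart, and the mean rose 14.5-fold, from 0.664 ± 0.1 to 9.61 ± 0.323 FPKM (SD, n = 2). For Irf7 the log2 change was 3.67 with SE 0.20 (limma, adjusted p = 4.46e-06), which ranked 347 among the 13199 genes tested.

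In the untreated samples Irf7 stood at 0.0776 and 0.116 of the level of Irf3, and after 5-AZA at 1.34 and 0.998. The factor known for amplifying the interferon response was thus below the constitutive one in the untreated samples and at about its level after 5-AZA. This ratio needs no scaling between samples. Both 5-AZA values exceeded both untreated values, and an exact permutation test of 2 against 2 cannot go below p = 0.333.

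The start of Irf7 is shown because the gene changed more than Ddx58 and yet its window holds no match to this element core. It lies at chr7:141266375-141266674 on the minus strand (RefSeq, GRCm38.p6).
Irf7: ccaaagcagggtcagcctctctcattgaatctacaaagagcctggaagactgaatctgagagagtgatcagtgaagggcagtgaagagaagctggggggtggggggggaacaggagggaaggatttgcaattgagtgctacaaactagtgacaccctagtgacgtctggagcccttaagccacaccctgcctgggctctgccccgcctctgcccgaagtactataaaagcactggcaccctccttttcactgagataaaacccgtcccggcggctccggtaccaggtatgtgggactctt
The absence of these letters says only that this window lacks them. The window holds 7 CpG dinucleotides, the median over all 32851 promoter windows, and its ratio of observed to expected CpG was 0.31 against a median of 0.384.

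**Figure D2:**
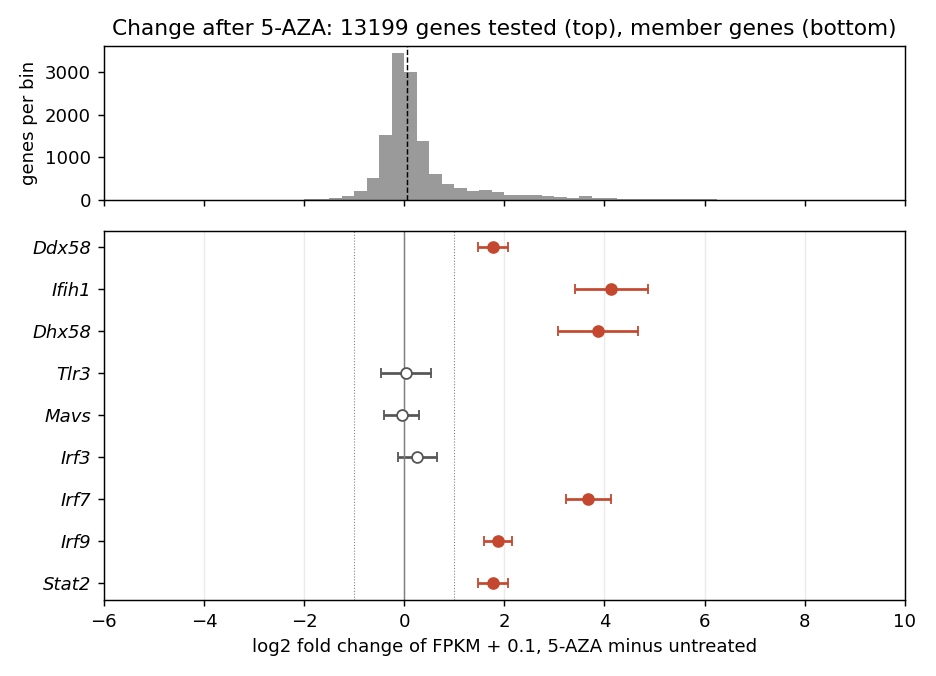
Log2 fold change of FPKM + 0.1 after 5-AZA on the horizontal axis, for all 13199 genes tested as a histogram above (values beyond the axis are drawn in the last bin, the dashed line is the median) and for the 9 genes below with 95% intervals from limma (n = 2 in each group). Filled points are called genes, and Tlr3, Mavs and Irf3 lie near the bulk of all genes at 0.03, -0.05 and 0.26.

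The 2 factors that act on the receptor side rose by nearly the same factor as Ddx58. Irf9, the DNA-binding subunit of the STAT complex, was at 7.72 and 6.67 FPKM in the untreated samples and at 26.4 and 26.8 FPKM after 5-AZA. The groups did not overlap, and the mean rose from 7.195 ± 0.74 to 26.6 ± 0.297 FPKM (SD, n = 2), which gave a log2 change of 1.87 with SE 0.12 (limma, adjusted p = 1.21e-05). Stat2, the subunit that carries the transactivation domain of this complex, was at 4.90 and 4.91 FPKM before and at 16.1 and 17.9 FPKM after 5-AZA. Its mean rose from 4.90 ± 0.00663 to 17.0 ± 1.32 FPKM (SD, n = 2), which gave a log2 change of 1.77 with SE 0.13 (limma, adjusted p = 2.32e-05).

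The ratio of Stat2 to Irf9 was 0.634 and 0.736 in the untreated samples and 0.609 and 0.669 after 5-AZA. These ranges overlap, so both subunits rose without a separable change in their proportion.

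The start of Stat2 is shown as the remaining window with a match to the element core. It lies at chr10:128270248-128270547 on the plus strand (RefSeq, GRCm38.p6).
Stat2: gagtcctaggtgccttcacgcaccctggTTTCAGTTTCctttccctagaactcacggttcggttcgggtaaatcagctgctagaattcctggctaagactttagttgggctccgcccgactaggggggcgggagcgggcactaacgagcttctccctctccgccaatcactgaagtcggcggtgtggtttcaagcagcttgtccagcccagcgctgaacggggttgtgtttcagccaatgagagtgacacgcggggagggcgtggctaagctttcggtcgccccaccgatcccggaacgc
The match is on the opposite strand, 222 to 213 bases before the start. Irf9 has 2 annotated starts and Irf3, Mavs and Tlr3 have 1 each, and none of these windows holds the motif.

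**Figure D3:**
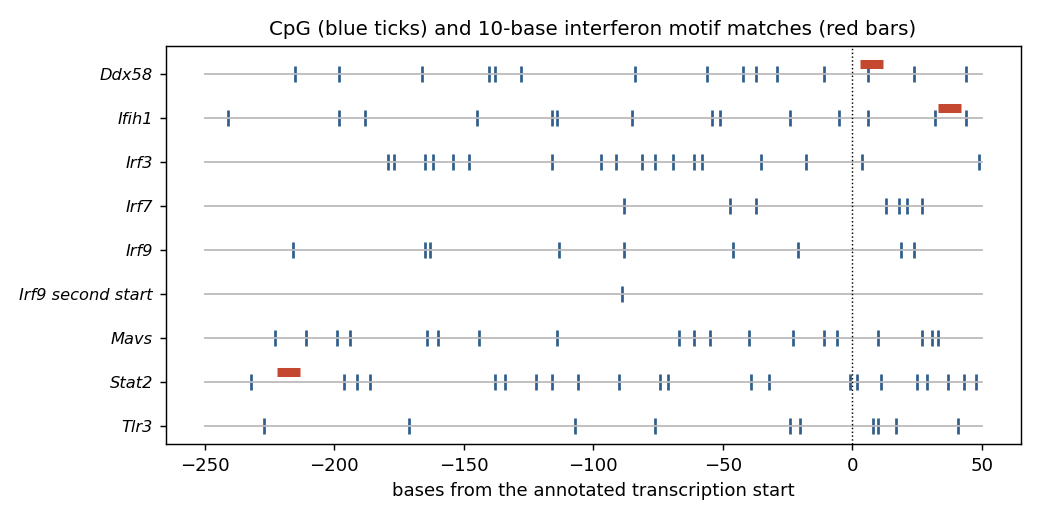
Windows of 300 bases around the annotated starts of 8 genes (Irf9 with 2 starts), with the distance from the start in bases on the horizontal axis, CpG dinucleotides as blue ticks and matches to the element core as red bars. The matches lie just after the start in Ddx58 and Ifih1 and 222 bases before it in Stat2, and CpG numbers run from 1 in the second Irf9 window to 22 in Stat2.

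Promoter windows were found for 8 of the 9 genes, and 3 of these 8 held the element core on either strand. Over all 27025 genes with a window 3.99% held it, and over the tested genes with a window 3.73%. Of the genes called higher 7.37% held it, and of the interferon-stimulated target genes named below 14 of 32, among them Isg15, Ifit1 and Bst2. The other element searched, TTC and GAA with any 3 bases between them, which reads the same on both strands, was in 0 of the 8 genes and in 9.55% of all genes with a window. No match of one motif overlapped with another match in these windows. Of the called genes, Ddx58, Ifih1 and Stat2 held 15, 14 and 22 CpG, Irf7 held 7 and Irf9 held 9 and 1 in its windows. The uncalled Tlr3, Irf3 and Mavs held 10, 18 and 19, within the range of the called genes. DNA methylation itself was not measured.

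The transcripts of a gene show which annotated forms carry its level. Of the 30 transcripts 26 were tested among 35557, and 6 were called higher, 1 in each of the 6 called genes, against 2.1% of all transcripts tested. The called transcript of Ifih1, at 0 FPKM in both untreated samples, passed the limit on the mean only through its 5-AZA samples. Without the limit on low values limma called 0 of the 30 (0 of 66285 over all transcripts). Past an unadjusted p-value of 0.05 were 12 of the 30, all of them higher. The share of all transcripts past this value was not computed, so the 12 cannot be weighed. NM_172689.3 is the single transcript of Ddx58 and NM_030150.2 that of Dhx58. For Ifih1 NM_027835.3, at 1.58 and 1.59 FPKM after 5-AZA, held all of the level in replicate 101 and 90.45% in replicate 102.

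In Irf9 the curated transcript NM_008394.3 rose from 5.68 and 5.58 FPKM to 11.6 and 11.9 FPKM (1.05 on the log2 scale, limma adjusted p = 0.0377). NM_001159418.1 was at 1.00 and 0.032 FPKM in the untreated samples and at 10.2 and 11.8 FPKM after 5-AZA. Its share of the Irf9 total was 12.96% and 0.48% before and 38.8% and 44.2% after, without overlap, although the change of the transcript itself missed the threshold (4.87 on the log2 scale, limma adjusted p = 0.078). In Stat2, NM_019963.1 held 65.3% to 78.0% of the total in all 4 samples and carried the call (1.87 on the log2 scale, limma adjusted p = 0.0123).

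The transcripts of Irf7 were less settled. NM_016850.3, the called one, held 81.7% and 28.8% of the Irf7 total in the untreated samples and 51.8% and 34.8% after 5-AZA. The predicted XM_006536214.1 was at 0.504 FPKM in 5-AZA replicate 101 and at 3.12 FPKM in replicate 102, while the gene totals of these samples were 9.84 and 9.38 FPKM. The gene totals of these samples were thus closer to each other than the transcript values. In Irf3, NM_016849.4 held 81.6% to 98.4% of the total. In Mavs, NM_001206385.1 led in every sample with 2.96 to 4.49 FPKM, and it was not called (limma, adjusted p = 0.638).

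**Figure D4:**
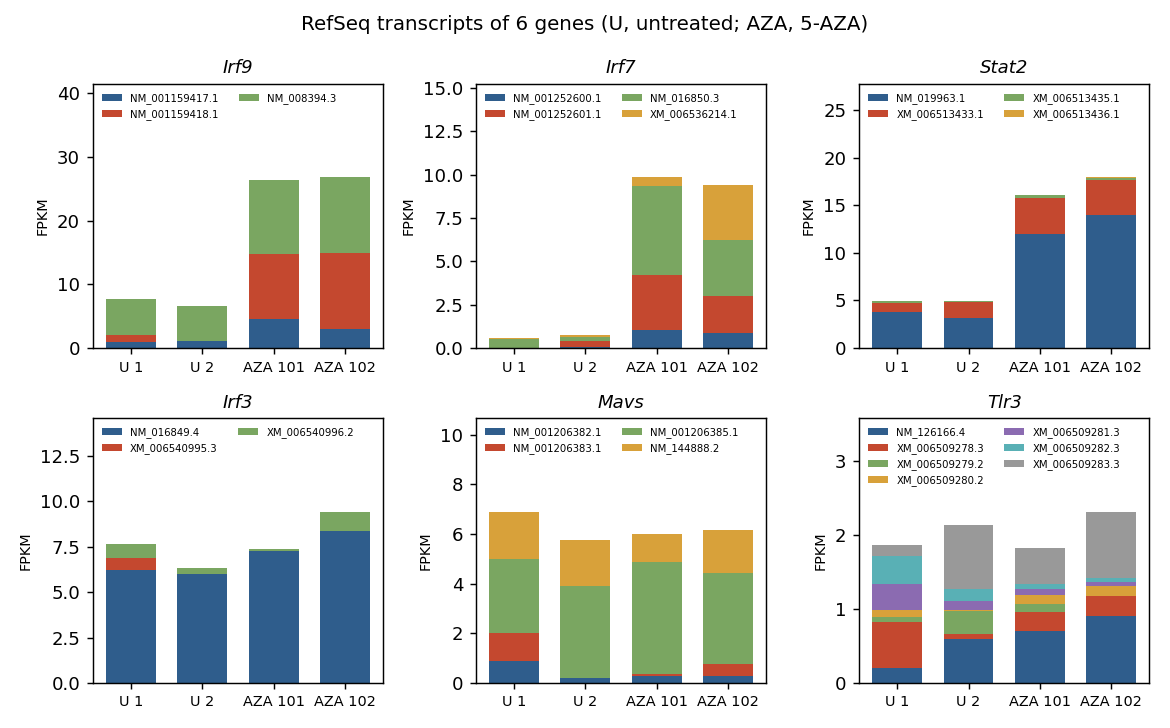
FPKM of each RefSeq transcript, stacked per sample, for 6 genes with more than 1 transcript. NM_001159418.1 of Irf9 takes 38.8% and 44.2% of the total after 5-AZA, and the stacks of Irf3, Mavs and Tlr3 reach similar heights in all samples.

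The order of the levels differed between the groups. In the untreated samples Irf9, Irf3, Mavs and Ddx58 led with means of 7.195, 6.97, 6.33 and 5.85 FPKM, and the samples of each neighbouring pair overlapped. Stat2 followed at 4.90 FPKM and Tlr3 at 2.00 FPKM, both apart from their neighbours. Irf7 and Dhx58 overlapped at 0.664 and 0.519 FPKM, and Ifih1 was listed at 0. After 5-AZA Irf9, Ddx58 and Stat2 led with means of 26.6, 20.2 and 17.0 FPKM, each apart from the next. Irf7, Irf3 and Dhx58 followed at 9.61, 8.38 and 8.26 FPKM, and the range of Irf3 covered that of Dhx58 and overlapped with that of Irf7. Mavs at 6.10, Tlr3 at 2.06 and Ifih1 at 1.66 FPKM closed the order, each apart from its neighbours.

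Centred on the mean of the 4 samples, the log2 levels of Ddx58, Irf9 and Stat2 lay closest together, with root mean square distances of 0.06 between Ddx58 and Irf9, 0.10 between Irf9 and Stat2 and 0.11 between Ddx58 and Stat2. Irf7 and Ifih1 were 0.26 apart and Irf7 and Dhx58 0.52. Tlr3, Mavs and Irf3 lay within 0.20 of each other. Over all other genes tested, the 5 nearest to the mean profile of the 9 genes over these 4 samples were Parp9, Akap12, 2210016F16Rik, Nlrc5 and Ifitm1, at distances of 0.0268 to 0.0585. Parp9, which encodes an ADP-ribosyltransferase family protein, was at 4.25 and 3.82 FPKM before and at 15.4 and 15.7 FPKM after 5-AZA. Nlrc5 encodes a transactivator of MHC class I genes and Ifitm1 an interferon-induced membrane protein, and Akap12 encodes a scaffold of protein kinase A.

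The other genes of the pathway were taken from lists by role, which were also chosen with earlier results of these data known. Counts are read beside the 13.1% of all genes that were called higher. Of 22 adaptors and kinases 3 were called higher and 0 lower. Their median log2 change was 0.03. Tmem173, which encodes the adaptor STING of the DNA-sensing route, rose from 0.497 ± 0.105 to 1.18 ± 0.289 FPKM (SD, n = 2), with an adjusted p of 0.0278 in limma. The other 2, named after their values were seen, were Trim25, a ubiquitin ligase of RIG-I, and Tbkbp1, a binding partner of TBK1. They reached 0.505 to 0.819 and 0.849 to 1.05 FPKM after 5-AZA. Trim25, with an untreated mean of 0.0026 FPKM, passed the limit on the mean only through its 5-AZA samples. Of the kinase genes, Tbk1 was at 12.8 and 12.0 FPKM before and at 11.8 and 12.8 FPKM after (adjusted p = 0.954, limma), and Ikbke was at 2.83 and 3.18 FPKM before and at 1.98 and 2.37 FPKM after (adjusted p = 0.144, limma). Both were also named after their values were seen. With 1 FPKM added before the log, or with a mean of at least 1 FPKM required, 0 of these adaptor and kinase genes were called.

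Of 16 other nucleic acid sensors 13 were tested, 3 were called higher and 0 lower, and the median was 0.18. Ddx60, a helicase gene of the antiviral response, rose from 0.0522 ± 0.0135 to 4.30 ± 0.0585 FPKM (SD, n = 2), by 4.86 on the log2 scale. Ddx60 passed the limit on the mean only through its 5-AZA samples, and the size of its change follows the constant added before the log. Zbp1, which encodes a sensor of Z-form nucleic acid, rose from 0.204 ± 0.1 to 3.65 ± 0.121 FPKM (log2 fold change 3.67). Eif2ak2, the gene of the kinase PKR that halts translation on double-stranded RNA, rose 2.04-fold from 19.9 ± 0.264 to 40.7 ± 0.663 FPKM (log2 fold change 1.03). The interferon receptor genes Ifnar1 and Ifnar2 had log2 differences of 0.00 and 0.68, and neither was called. Of 8 genes of other interferon regulatory factors and their binding proteins 6 were tested, 0 were called with limma (before adjustment 3 had a p-value below 0.05, all of them higher), and Irf1 (0.73) was the 1 with an adjusted p-value below 0.05.

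Interferon genes themselves were at or near 0. Of 21 listed, 14 were at 0 in all 4 samples, Ifnb1 among them, and another 5 stayed below 1e-10 FPKM. Ifng was listed at 0 in both untreated samples and at 0.188 and 0.0778 FPKM after 5-AZA, and Ifne at 0.148 and 0.226 FPKM in 1 sample of each group. None passed the limit for a test. Since the samples were taken 21 days after 5-AZA was removed, these values describe that time alone, and short transcripts at low levels can be missed at this unknown depth.

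Of 24 inhibitors of the pathway, all tested, 4 were called higher and 0 lower. Their median log2 change was 0.29. Usp18, which encodes the protease that removes ISG15 and restrains the interferon receptor, rose from 0.435 ± 0.108 to 12.9 ± 0.171 FPKM (SD, n = 2), by 4.61 on the log2 scale (limma, adjusted p = 1.96e-06). Trim21, an antibody receptor and ubiquitin ligase gene, rose 3.16-fold and Tnfaip3, which encodes the NF-κB inhibitor A20, 2.65-fold. Nlrc5 was the remaining one, at 0.501 ± 0.0507 FPKM after 5-AZA (SD, n = 2). With an untreated mean of 0.0668 FPKM, Nlrc5 passed the limit on the mean only through its 5-AZA samples. Socs1, the classical feedback inhibitor of Jak kinases, named after its values were seen, was at 2.13 and 2.06 FPKM before and at 2.84 and 2.85 FPKM after (adjusted p = 0.148, limma).

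Of 39 interferon-stimulated target genes 37 were analysed and 34 tested, and 31 were called higher and 0 lower. Their median log2 change was 3.47. Among the called targets, Oas1a, Oas2, Oas3, Oasl1, Sp100 and Cxcl10 passed the limit on the mean only through their 5-AZA samples. The untreated mean of each was below 0.1 FPKM, and these calls add no support beyond the values themselves. No values were found under the names Mx1 and Mx2. Rsad2, Cmpk2 and Epsti1 stayed under the limit for a test. In 5-AZA replicates 101 and 102 Rsad2 was at 0.0993 and 0.221 FPKM, Cmpk2 at 0.0358 and 0.0619 FPKM and Epsti1 at 0 and 0.0967 FPKM. Oas1a, Oasl2, Ifit1 and Isg15 had the largest changes of this list, from 4.96 to 5.595 on the log2 scale. Isg15, which encodes a ubiquitin-like modifier, was at 2.08 and 1.33 FPKM before and at 55.8 and 54.1 FPKM after 5-AZA. Ifit1, the gene of a protein that binds foreign RNA ends, was at 2.22 and 1.56 FPKM before and at 67.2 and 59.3 FPKM after. The 3 tested but not called were Ifit2, Samd9l and Tap1, with log2 differences of 0.31, 0.79 and 0.88, all under 2-fold. Without 5-AZA replicate 101 the count was 19, and without replicate 102 it was 18, while the count over all genes fell from 1724 to 925 and 733 and the share called higher from 13.1% to 7.07% and 5.65%.

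**Figure D5:**
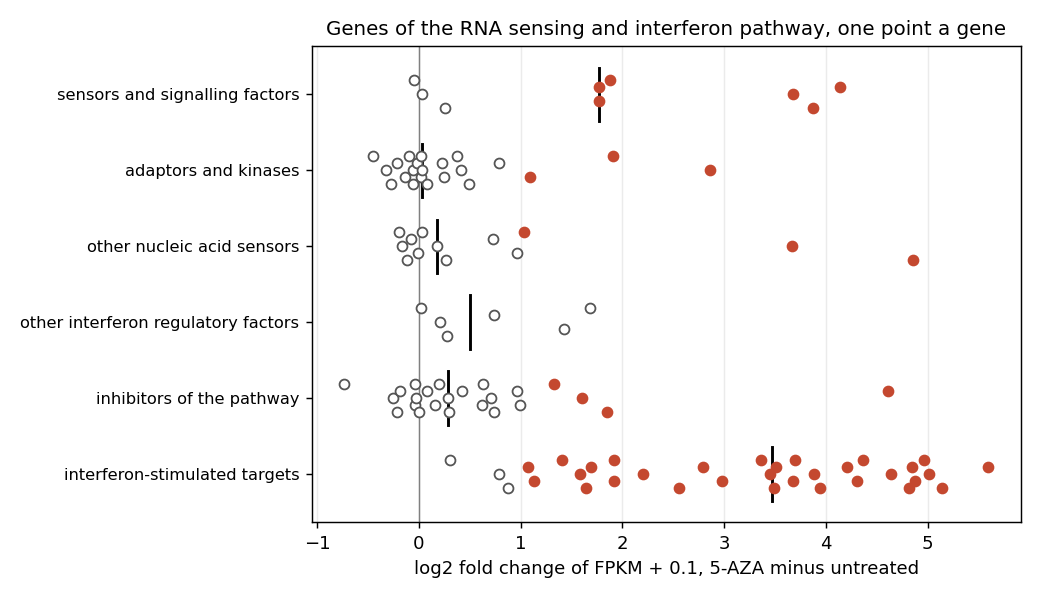
Log2 fold change of FPKM + 0.1 after 5-AZA on the horizontal axis for each tested gene of 6 lists of the pathway (n = 2 in each group), with filled points for called genes and a black bar at each list's median. Adaptors and kinases have a median of 0.03 and interferon-stimulated targets of 3.47, and the sensors and signalling factors stand between them at 1.77.

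Markers of cells that could bring such transcripts into the culture were read beside these results. Of 14 leukocyte markers 6 were listed at 0 in all samples, among them Tyrobp, Cd3e and Adgre1, and Ptprc, which marks nearly all leukocytes, was at 0 in 3 samples and at 0.063 FPKM in 5-AZA replicate 101. The list summed to 4.62 and 5.80 FPKM before and to 16.0 and 19.3 FPKM after 5-AZA, with 2 of 4 tested genes, Fcer1g and Cd68, called higher. Most of the sum after 5-AZA was Fcer1g, which was at 0.0955 and 0 FPKM before and at 9.57 and 10.9 FPKM after. Fcer1g, too, passed the limit on the mean only through its 5-AZA samples. Endothelial markers summed to 0.631 and 0.398 FPKM before and to 4.03 and 3.45 FPKM after. Of 4 tested 3 were called higher, Emcn, Tek and Cdh5, and Kdr was at 0 in all samples. The means of Emcn, Tek and Cdh5 rose from 0.070, 0.361 and 0.0031 FPKM to 1.95, 1.26 and 0.348 FPKM. Emcn and Cdh5 passed the limit on the mean only through their 5-AZA samples. Adipocyte markers summed to 46.2 and 30.3 FPKM before and to 1135 and 1560 FPKM after, with 6 of 7 genes called higher. Skeletal muscle markers summed to 1.62 and 1.28 FPKM before and to 819 and 1253 FPKM after, with 10 of 10 called higher. Of these called genes, Cidec, Ckm, Myh3, Myod1, Myog, Tnni2 and Ttn passed the limit on the mean only through their 5-AZA samples. Of 10 proliferation markers 0 were called, and the median was -0.24 (before adjustment 2 had a p-value below 0.05, both lower). The part of these cell states in the rise of the RNA sensors was not tested.

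None of the 4295 circRNAs listed had one of the 9 genes as its host gene, so circular transcripts gave no further reading of them. In the RefSeq table Stat2 overlaps with Apof, which was listed at 0 in all 4 samples, and Ifih1 and Dhx58 overlap with lncRNA genes (Gm39839 and Gm38483) that were not analysed here.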

How the data were processed

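The authors deposited FPKM values per mRNA and lncRNA transcript and RPM values per circRNA. Ribosomal RNA was removed and libraries were stranded. The submitters' processing notes name Trimmomatic, HISAT2, Bowtie2 2.2.9, eXpress 1.5.1 and the build mm9, without a role for each. Read counts were not used here, the depth behind an FPKM value is unknown, and the lncRNA values were not used.

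FPKM values of all transcripts of a gene were summed. Values of log2(FPKM + 0.1) were fitted with limma 3.58.1 (lmFit, eBayes with trend) in R 4.3.3 on 13199 genes with a mean of at least 0.1 FPKM, with both groups in 1 fit, and adjusted over all of them by Benjamini-Hochberg. RPM values served only to look up host genes. The fit was tested on simulated data.

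The 9 genes and all lists were chosen with earlier results of these data known. Pathway genes named are up to 4 per list with the largest change among called genes without overlap between groups and with the higher group averaging at least 1 FPKM, and the 5 genes of nearest profile. Others were named after their values were seen, and some genes of the lists are not reported here. Promoter windows came from RefSeq (GRCm38.p6) and were searched on both strands. The 13 alternatives covered pseudocounts, limits on low values, scalings, eBayes without trend, curated transcripts and the omission of each sample.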

Additional observations from a re-analysis of the deposited data

How the results depend on the processing

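The rises of Ddx58, Ifih1, Irf7, Irf9 and Stat2 kept their direction and stayed past the threshold under every alternative that tested them. Ifih1 was not tested where a mean of at least 1 FPKM was required, and elsewhere it entered the test only through its 5-AZA samples. Over the 9 genes and 13 alternatives 116 values were computed, of which 109 kept direction and side of the threshold, 2 lost the call and 5 changed sign, all of these in Tlr3 and Mavs, which were not called in any. Tlr3 was -0.072 with median centring, -0.35 with quantile normalization and 0.97 with curated transcripts alone, where it was not called either (limma, adjusted p = 0.257). With each sample left out in turn Tlr3 ran from -0.13 to 0.20, Mavs from -0.17 to 0.076 and Dhx58 from 3.29 to 4.46, and Dhx58 lost its call without either 5-AZA sample (adjusted p = 0.107 and 0.106, limma). The number of the 9 genes called higher was 5 or 6 throughout.

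Over all genes, 1724 were called higher and 174 lower, or 875 and 86 with 1 FPKM added, 845 higher with a mean of at least 1 FPKM, 83 lower without the limit on low values, and 1041 higher and 886 lower after quantile normalization, which moved the median change of all genes from 0.05 to -0.12 and the higher share of calls from 90.8% to 54.0%. Omitting single samples gave 733 to 1617 higher and 52 to 184 lower. Inhibitors called higher fell from 4 to 2 with 1 FPKM added and after quantile normalization, which also called 1 lower. Adaptors and kinases fell from 3 to 0 with 1 FPKM added and with a mean of at least 1 FPKM, and to 1 after quantile normalization and with curated transcripts. Other regulatory factors went from 0 to 1 with 0.01 FPKM added, and interferon genes from 0 to 1 when samples were rescaled to equal FPKM sums. Omitting single samples gave 18 to 31 targets, 2 to 5 inhibitors, 1 to 3 adaptors and kinases, 0 to 1 receptor and Jak-Stat genes and 0 to 1 other regulatory factors called higher. Transcripts of the 9 genes called higher fell from 6 to 0 without the limit on low values, where 66285 transcripts entered the adjustment. Where a sample was left out, the remaining one of its group was assumed to vary like the other group. Otherwise the cause of these shifts was not tested. No paired analysis was possible because the groups share no replicate number.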
